A study of Mus musculus with 6 samples.

Results

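Metallothioneins and zinc transporters were followed in mouse liver as 7 genes chosen by name: the metallothioneins Mt1 and Mt2, the Slc39a (ZIP) transporters Slc39a4, Slc39a5 and Slc39a14, and the Slc30a (ZnT) transporters Slc30a1 and Slc30a10. All 7 were found among the 56847 genes of the count table. RNA was sequenced from the livers of mice fed CDAHFD (3 libraries) and of mice fed a normal diet (3 libraries). CDAHFD is an amino acid-defined, high-fat feed without choline, with which rodents develop steatohepatitis. The sources used here do not give strain, age, sex or time on the diet, nor whether each library is a separate animal. The p-values therefore reflect only how far these libraries differ from each other, which may be technical.

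Metallothioneins are small cysteine-rich proteins that bind zinc and copper. ZIP proteins carry zinc into the cytosol from outside the cell or from organelles, and ZnT proteins carry it out of the cytosol. Free zinc activates the transcription factor MTF1, which binds metal response elements in the promoters of Mt1, Mt2 and Slc30a1. In mouse liver, metallothionein genes also respond to glucocorticoids and to interleukin 6. Some members of both transporter families carry manganese as well: Slc39a14 takes zinc, manganese and iron into hepatocytes, and Slc30a10 exports manganese.

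The start regions of 4 of the genes are printed because the data bear on how these genes moved: Mt1 and Mt2 are the metallothioneins, Slc30a1 is a classical MTF1 target, and Slc30a10 had the largest fall. Each sequence runs from 250 bases before to 50 bases after an annotated transcription start, in RefSeq's annotation of build GRCm38.p6, on the plus strand. Capitals mark matches to the core of the metal response element, searched as TGCACNC and TGCGCNC on both strands, so a match on the minus strand is printed as its reverse complement. The regions are chr8:94178839-94179138 for Mt1, chr8:94172368-94172667 for Mt2, chr1:191906531-191906830 for Slc30a1 and chr1:185454598-185454897 for Slc30a10.
Mt1: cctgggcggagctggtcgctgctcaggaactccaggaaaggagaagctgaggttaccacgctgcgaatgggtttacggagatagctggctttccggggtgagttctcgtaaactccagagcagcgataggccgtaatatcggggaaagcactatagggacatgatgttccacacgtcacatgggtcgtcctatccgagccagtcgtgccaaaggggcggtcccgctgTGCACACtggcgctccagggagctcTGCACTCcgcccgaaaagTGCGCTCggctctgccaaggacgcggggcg
Mt2: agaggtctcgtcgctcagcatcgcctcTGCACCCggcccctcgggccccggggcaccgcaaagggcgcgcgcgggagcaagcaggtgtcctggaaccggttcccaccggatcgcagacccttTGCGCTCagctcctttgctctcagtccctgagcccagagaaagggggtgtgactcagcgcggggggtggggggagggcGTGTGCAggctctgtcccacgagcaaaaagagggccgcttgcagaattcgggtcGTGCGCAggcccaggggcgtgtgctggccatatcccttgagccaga
Slc30a1: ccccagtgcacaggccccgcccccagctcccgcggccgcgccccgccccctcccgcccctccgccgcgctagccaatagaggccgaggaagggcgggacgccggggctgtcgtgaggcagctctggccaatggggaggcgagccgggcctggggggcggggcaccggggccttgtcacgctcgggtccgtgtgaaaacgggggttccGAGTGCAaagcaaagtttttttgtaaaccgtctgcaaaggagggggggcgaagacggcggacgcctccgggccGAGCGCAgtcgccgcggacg
Slc30a10: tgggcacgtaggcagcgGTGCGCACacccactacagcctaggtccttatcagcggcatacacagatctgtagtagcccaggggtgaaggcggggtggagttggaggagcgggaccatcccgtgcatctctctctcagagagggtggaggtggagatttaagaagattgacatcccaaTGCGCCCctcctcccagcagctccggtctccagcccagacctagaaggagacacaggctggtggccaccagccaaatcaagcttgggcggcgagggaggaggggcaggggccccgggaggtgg

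The Mt2 region held 4 matches, the Mt1 region 3, the Slc30a10 region 3 and the Slc30a1 region 2. Each of these genes was searched at 1 annotated start, whereas GENCODE M21 lists 3 transcripts for Mt1 and 2 for Mt2. Elements near any other start lie outside the windows and were not searched. In Slc30a10, 2 of the 3 matches overlap on opposite strands at bases 18 to 25 of the sequence. Of 32851 regions of the same length, 25.7% held at least 1 match, 7.11% at least 2, 1.97% at least 3 and 0.518% at least 4. Slc39a5 has 2 annotated starts, with 1 match and 0 matches. The table used had no entry for Slc39a4 and Slc39a14. A match is a description of the letters in the window. Mt1 and Mt2 are neighbours on chromosome 8, where Mt2 lies between Mt3 and Mt1.

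Library totals were 21986215 to 25628531 counts. Of the 14215 genes tested with edgeR's quasi-likelihood test after scaling by the trimmed mean of M values (TMM), 52.1% passed an adjusted p of 0.05: 28.5% were higher and 23.5% lower on CDAHFD. On the scale of total counts 44.0% were higher and 8.07% lower, with hepatocyte marker scaling 46.6% and 5.97%, and with limma on log2(TPM + 1) 45.4% and 6.31%. Relative to TMM, these scales moved the median log2 fold change of all genes by 0.32, 0.39 and 0.34. Summed hepatocyte markers were 113000 to 125000 CPM (TMM-scaled counts per 1000000) on CDAHFD and 147000 to 167000 on normal diet, and in TPM they overlapped, at 150000 to 158000 on CDAHFD and 151000 to 167000 on normal diet. Most of that sum is Alb (73200 CPM on CDAHFD and 101000 on normal diet), and Trf was at 0.30 ± 0.14 (log2, edgeR adjusted p = 0.095). Summed macrophage markers were 1730 to 1830 CPM on CDAHFD and 362 to 489 on normal diet, and stellate cell and fibroblast markers were 1140 to 1380 against 230 to 287. Much of the macrophage sum on CDAHFD was Lyz2 (524 CPM, and 65.2 on normal diet) and Gpnmb (516 and 0.330). Clec4f, the 1 macrophage marker that did not pass, was at -0.29 ± 0.19 (log2, edgeR adjusted p = 0.218). In bulk tissue, fewer cells of a type and less RNA per cell cannot be told apart.

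Of the 7 genes, 6 passed the filter on low counts, and all 6 passed the test, set against 52.1% of all genes. Mt1, Slc39a4 and Slc39a5 were higher on CDAHFD; Slc39a14, Slc30a1 and Slc30a10 were lower. In CPM the diets did not overlap for any of the 6, against 60.6% of all genes (32.2% with CDAHFD above and 28.4% with CDAHFD below). Slc39a5 passed the filter through the CDAHFD libraries, where it is high. The members were also chosen with earlier results of these data known. Neither count of 6 is therefore a fair contrast with the shares of all genes. The falls of Slc39a14 and Slc30a1 depended on the scale: on total counts, hepatocyte markers or TPM neither passed. Mt2 failed the filter and had no test in that fit.

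**Figure D1:**
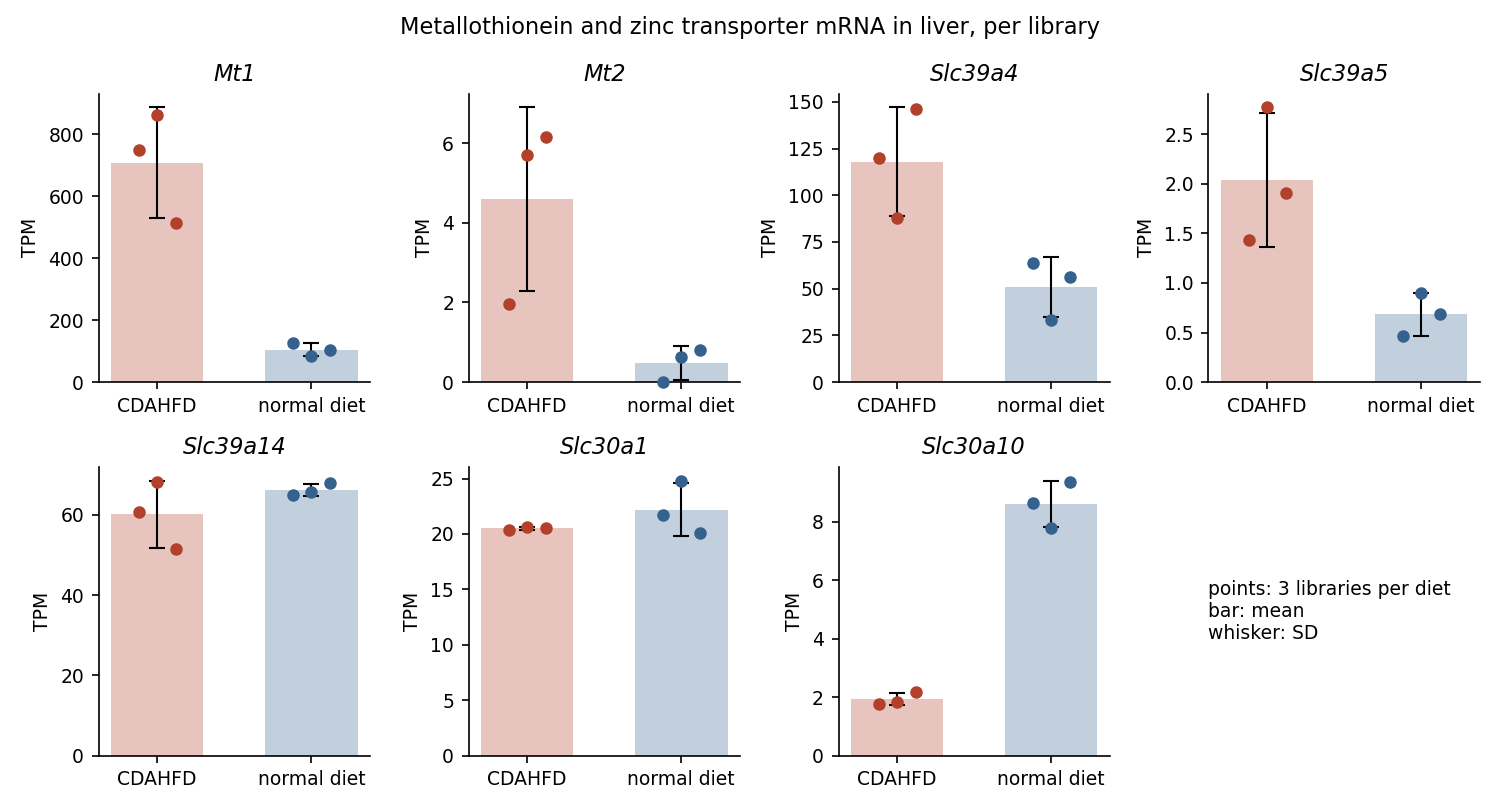
Level of each of the 7 genes in deposited TPM (vertical axis, from 0, own scale for each gene) in 3 CDAHFD and 3 normal diet libraries. Points are libraries, bars are means and whiskers are SD. Mt1, Mt2, Slc39a4 and Slc39a5 lie higher on CDAHFD with no overlap, Slc30a10 lies lower with no overlap, and the diets overlap for Slc39a14 and Slc30a1.

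Mt1 (ENSMUSG00000031765) was the metallothionein gene with the most counts in these libraries. It stood at 750, 863 and 513 TPM in the CDAHFD livers, against 125, 83.0 and 104 TPM in the normal diet livers. The lowest CDAHFD library lay above the highest normal diet library. In CPM the means were 284 ± 78.9 on CDAHFD and 53.8 ± 12.9 on normal diet (SD, n = 3 each). The log2 fold change was 2.40 ± 0.22 (SE), a 5.28-fold higher level (edgeR adjusted p = 5.46e-06). By mean CPM, Mt1 ranked 370 among all genes on CDAHFD and 2783 on normal diet, and 5.48% of tested genes had a larger rise.

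Mt2 (ENSMUSG00000031762), a close paralogue of Mt1, was counted at a far lower level. Its counts were 9, 31 and 29 on CDAHFD, against 0, 3 and 4 on normal diet. In TPM that was 1.95, 5.69 and 6.15 on CDAHFD and 0, 0.640 and 0.802 on normal diet. Every CDAHFD library was above every normal diet library, and an exact two-sided permutation test of CPM gave p = 0.1, the smallest that 3 against 3 allows. A minimum count of 5 in place of 10, a setting chosen after seeing the data, kept Mt2 only through the CDAHFD libraries, where it is high, so its fitted fold there is no support. As a share of Mt1 counts, Mt2 was 0.123%, 0.311% and 0.566% on CDAHFD and 0%, 0.364% and 0.364% on normal diet. The mean shares were 0.333% on CDAHFD and 0.243% on normal diet, a difference of 0.0906 percentage points (exact permutation p = 0.7). Its sign rests on single libraries: it was -0.0256 without CDAHFD replicate 3 and -0.0307 without normal diet replicate 1, and 0.196 without CDAHFD replicate 1, 0.151 without normal diet replicate 2 and 0.151 without normal diet replicate 3. In normal diet replicate 1 a count of 0 allows a share of up to 0.223%, counting error only.

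The level of Mt2 is uncertain, and with it the share of Mt1 counts and the place of Mt2 in any order by TPM. In the GENCODE M21 annotation 73.5% of its 588 exonic bases lie under exons of Gm45774 on the opposite strand. Gm45774 was counted at 1, 0 and 0 on CDAHFD and 1, 0 and 0 on normal diet. The libraries came from a stranded kit, but the sources used here name neither the counting program nor its strand setting, so the part of this overlap in the low Mt2 count was not tested. Mt1 and Mt2 shared no stretch of 31 bases with each other. Of the other metallothioneins, Mt4 was at 0 in all 6 libraries and Mt3 had 1 count, in CDAHFD replicate 3.

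Among the ZIP genes, Slc39a4 (ENSMUSG00000063354) encodes the zinc importer best known from the intestine, whose loss in humans causes acrodermatitis enteropathica. It stood at 120, 87.9 and 146 TPM on CDAHFD, against 63.8, 33.2 and 56.1 TPM on normal diet. The diets did not overlap, but the nearest libraries of the diets were closer than for Mt1. The log2 fold change was 0.82 ± 0.24, or 1.77-fold (edgeR adjusted p = 0.0126). Without CDAHFD replicate 3 it was 0.62 and no longer passed (adjusted p = 0.0797).

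Slc39a5 (ENSMUSG00000039878), a zinc importer of the basolateral membrane of mouse enterocytes and of pancreatic acinar cells, was near the floor of the data. Its counts were 25, 57 and 34 on CDAHFD, against 9, 16 and 13 on normal diet. The levels were 2.04 ± 0.677 TPM on CDAHFD and 0.686 ± 0.217 TPM on normal diet (SD, n = 3 each), without overlap. The log2 fold change was 1.22 ± 0.36 (edgeR adjusted p = 0.0148), for a gene that passed the filter through the CDAHFD libraries, where it is high. It did not pass without CDAHFD replicate 2 (0.86, adjusted p = 0.0831) or without normal diet replicate 1 (1.02, adjusted p = 0.0652). Of 8 pancreatic acinar markers, summed at 11.7 to 14.8 CPM on CDAHFD and 23.0 to 29.0 on normal diet, nearly all was Cela1 (12.2 and 24.7 CPM). Prss2 and Amy2a5 were at 0 on both diets, and Cpa1, Pnlip and Cel at 0 on normal diet.

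Slc39a14 (ENSMUSG00000022094), the hepatocyte importer of zinc, manganese and iron not bound to transferrin, stood at 204, 238 and 170 CPM on CDAHFD, against 291, 271 and 304 CPM on normal diet. In TPM it stood at 60.8, 68.2 and 51.5 on CDAHFD, against 64.9, 65.8 and 68.0 on normal diet. The diets were separate in CPM and overlapped in TPM. With TMM the log2 fold change was -0.50 ± 0.13 (edgeR adjusted p = 0.00741). It was -0.18 on total counts (adjusted p = 0.245), -0.12 with hepatocyte scaling (0.497) and -0.15 on log2(TPM + 1) with limma (0.326). The 3 CDAHFD libraries spread more widely than the 3 normal diet libraries, with SDs of 34.1 and 16.3 CPM.

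Among the ZnT genes, Slc30a1 (ENSMUSG00000037434) encodes the zinc exporter of the plasma membrane. It stood at 34.1, 35.7 and 33.6 CPM on CDAHFD, against 48.4, 50.8 and 44.7 CPM on normal diet. In TPM it averaged 20.5 ± 0.0748 on CDAHFD and 22.2 ± 2.35 on normal diet (SD, n = 3 each), with overlap. With TMM the log2 fold change was -0.48 ± 0.10 (edgeR adjusted p = 0.00204), and with total counts, hepatocyte scaling and log2(TPM + 1) it was -0.15, -0.08 and -0.10 (adjusted p = 0.25, 0.622 and 0.466). Its direction was thus the opposite of that of Mt1 with TMM, and on the other 3 scales it did not pass.

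Slc30a10 (ENSMUSG00000026614), the exporter of manganese on the bile-facing membrane of hepatocytes, was the member that fell furthest. It stood at 1.78, 1.84 and 2.17 TPM on CDAHFD, against 8.65, 7.78 and 9.37 TPM on normal diet. The libraries within each diet lay close together, and the diets were far apart. The log2 fold change was -2.53 ± 0.15, a level of 0.174 times that on normal diet (edgeR adjusted p = 2.68e-07). It was the 62nd largest fall, with 0.429% of tested genes falling more. It was -2.20 on total counts and -2.14 with hepatocyte scaling, and on log2(TPM + 1), which understates the change of low genes, it was -1.71; it passed on all 3.

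**Figure D2:**
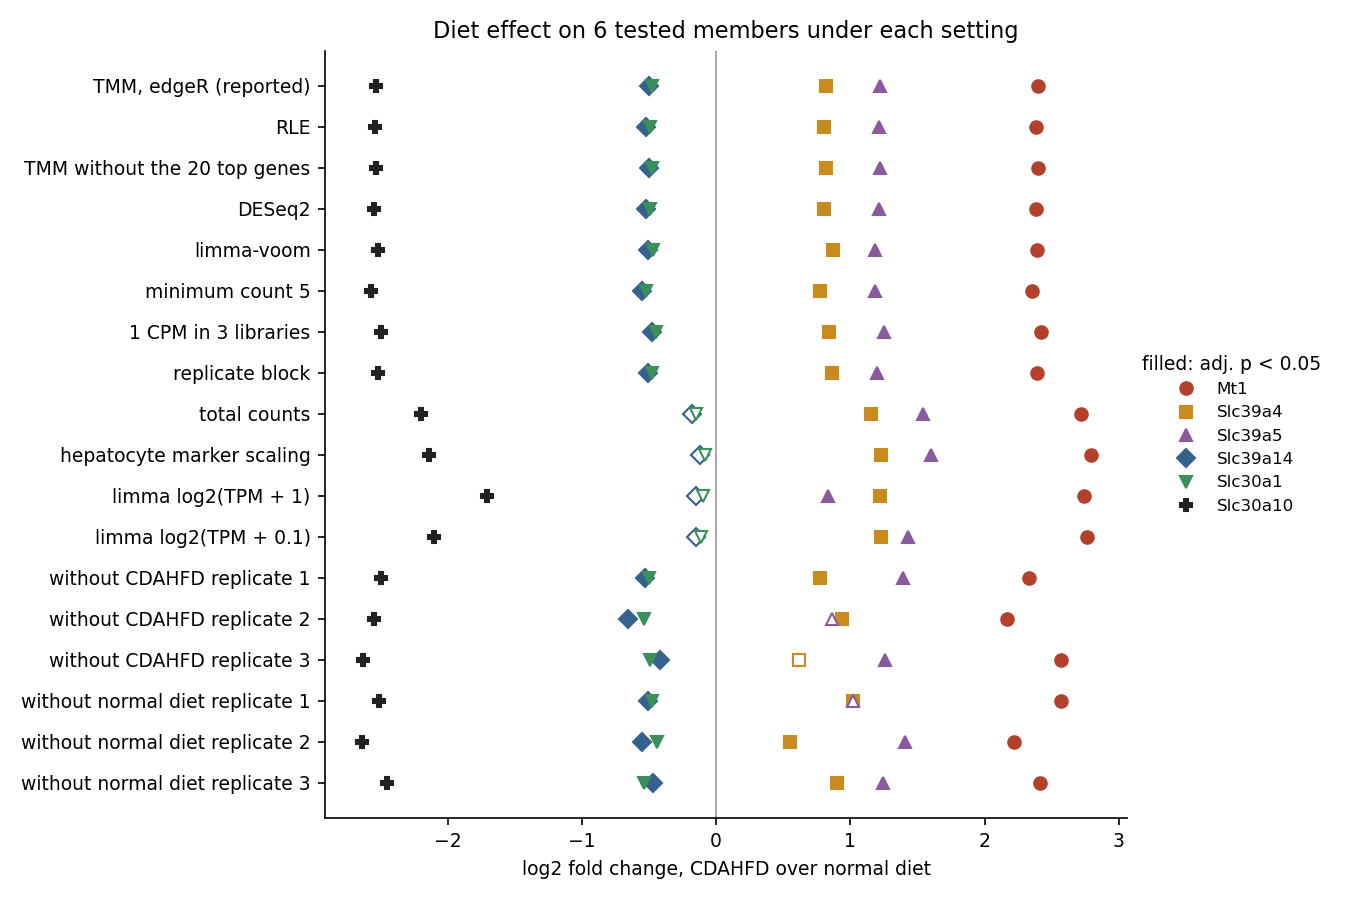
Log2 fold change of CDAHFD over normal diet (horizontal axis) for the 6 tested genes under each setting drawn (rows; the unfiltered fits are not drawn), filled where the adjusted p is under 0.05. Mt1 (2.17 to 2.79) and Slc30a10 are filled in every row drawn, whereas Slc39a14 and Slc30a1 are open in the rows of total counts, hepatocyte scaling and TPM.

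By mean TPM the order on CDAHFD was Mt1, Slc39a4, Slc39a14, Slc30a1, Mt2, Slc39a5 and Slc30a10, and the ranges of the last 3 overlapped. On normal diet it was Mt1, Slc39a14, Slc39a4, Slc30a1, Slc30a10, Slc39a5 and Mt2, and of neighbours in that order only Slc39a5 and Mt2 overlapped. Slc39a4 and Slc39a14 thus changed places. Mt1 had the highest mean TPM on both diets, with the level of Mt2 uncertain.

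Within CDAHFD the libraries did not order alike. Replicate 3 was the lowest of the 3 in CPM for Mt1 (200) and Slc39a14 (170) and the highest for Slc39a4 (142). Replicate 2 was the highest for Mt1 (356) and Slc39a14 (238) and the lowest for Slc39a4 (90.4). On normal diet, replicate 1 was the highest for both Mt1 (66.1) and Slc39a4 (84.2), and replicate 2 was the lowest for both (40.4 and 40.3).

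The genes with the nearest profile over the 6 libraries were found by the root mean square difference of log2 CPM. Each gene was first centred on its own mean, so the likeness is in the size and pattern of change and not in level. The difference was not scaled by how much a gene varies, so genes of small change tend to lie close. For Mt1 they were Cd200r1 (0.139), Rgs1 (0.147) and Cytip (0.156). For Slc30a10 they were Ppp1r3c (0.199), Scnn1a (0.277) and Csad (0.278). The smallest differences were those of Slc30a1, a gene of small change: Ube2g1 (0.019), Ubr2 (0.023) and Dcaf17 (0.023). Those of Slc39a14 were Gstz1 (0.065), Hinfp (0.066) and Hebp1 (0.067). For Slc39a4 they were Cystm1 (0.087), Fam198a (0.131) and Tuba8 (0.135), and those given for Slc39a5 were Gbp4 (0.134) and Arhgap15 (0.164).

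Of the 14 ZIP genes 12 were tested: 7 rose, 2 fell and 3 did not pass, with a median log2 fold change of 0.51; of all tested genes 28.5% rose and 23.5% fell, with a median of 0.01. On total counts 9 rose and 0 fell, with a median of 0.83; of all tested genes 44.0% rose and 8.07% fell, with a median of 0.34. Besides Slc39a4 and Slc39a5, the risers were Slc39a13 (0.82 ± 0.16, edgeR adjusted p = 0.00131), Slc39a3 (0.74 ± 0.18, 0.00434), Slc39a6 (0.60 ± 0.19, 0.0174), Slc39a10 (0.55 ± 0.18, 0.0222) and Slc39a11 (0.46 ± 0.11, 0.00478). Slc39a13 serves the secretory pathway of connective tissue cells. Slc39a8, which carries zinc and manganese, was lower with TMM (-0.50 ± 0.11, 0.00218), and on total counts it was -0.18 (0.211). Single libraries decided Slc39a6 and Slc39a10, which reached adjusted p = 0.109 and 0.104 with a library left out. Slc39a7 had a log2 fold change of -0.35 ± 0.51 (adjusted p = 0.585), and 80.7% of its exonic bases lie under exons of the readthrough gene Gm20427, counted at 0, so its level is uncertain.

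Of the 10 ZnT genes 8 were tested: 0 rose, 5 fell and 3 did not pass, with a median of -0.38, beside 28.5% higher, 23.5% lower and a median of 0.01 for all tested genes. On total counts 0 rose and 2 fell, with a median of -0.05 beside 44.0%, 8.07% and 0.34, so 3 of the 5 falls rest on the scale. The 2 that fell on both scales were Slc30a10 and Slc30a3. Slc30a3, a vesicle transporter best known from neurons, had counts of 8, 4 and 4 on CDAHFD and 26, 15 and 20 on normal diet (-2.26 ± 0.43, edgeR adjusted p = 0.00114). It passed the filter only through the normal diet libraries, where it is high, so its call had to favour a fall and is no support for one. Slc30a5, which loads zinc into the secretory pathway, was at -0.51 ± 0.10 (0.00158) with TMM and -0.18 (0.179) on total counts. Slc30a9 was at -0.27 ± 0.11 (0.0492) with TMM and at 0.05 on total counts, where the sign turned. Summed TPM of the ZIP family was 363 to 444 on CDAHFD and 249 to 276 on normal diet. That of the ZnT family was 78.9 to 84.0 on CDAHFD and 83.3 to 93.2 on normal diet. In CPM the ZIP sums overlapped, at 592 to 607 on CDAHFD and 553 to 630 on normal diet. The ZnT sums in CPM did not, at 189 to 196 on CDAHFD and 255 to 271 on normal diet. Both contrasts thus depended on the scale.

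**Figure D3:**
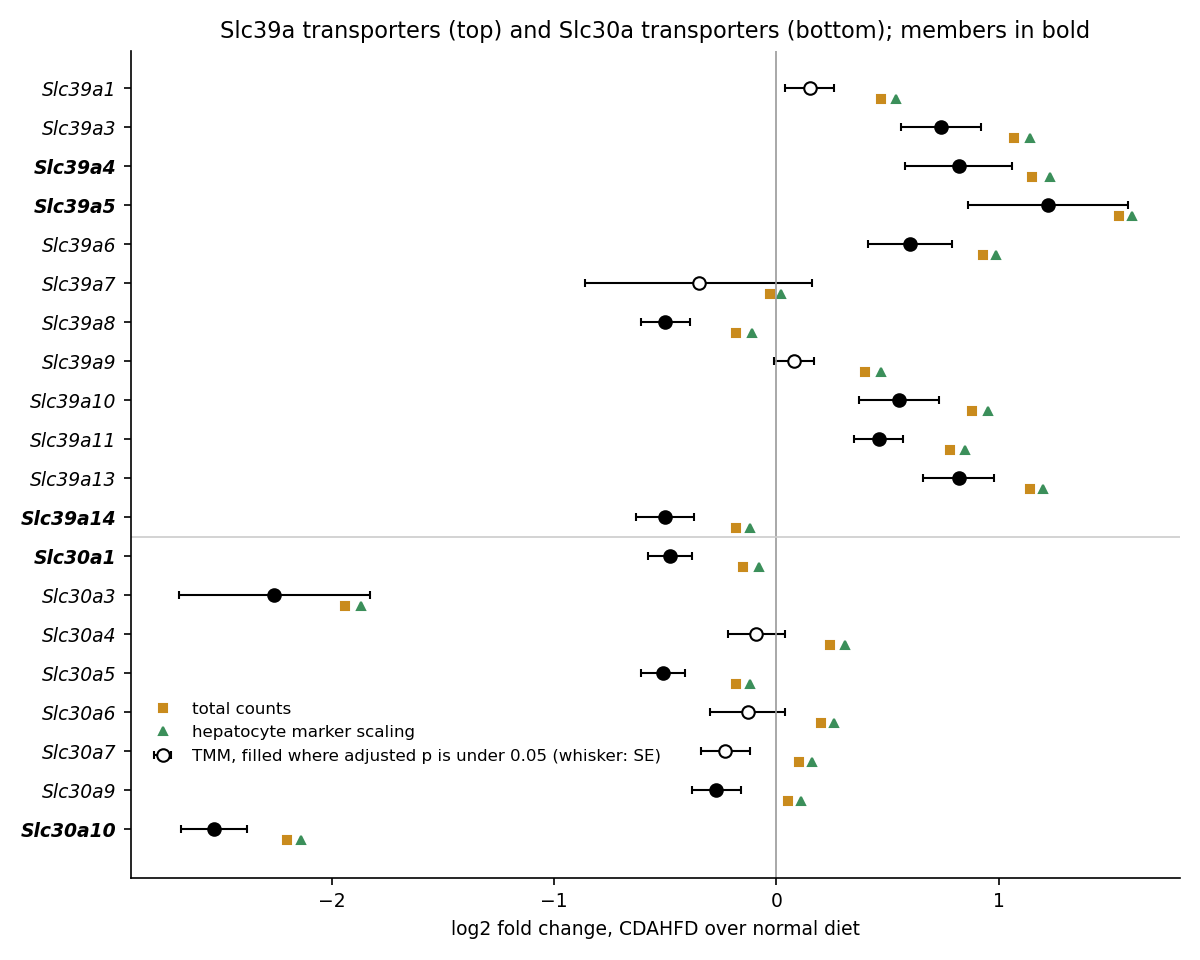
Log2 fold change of CDAHFD over normal diet (horizontal axis) for the tested ZIP and ZnT genes. Circles are TMM values with SE whiskers, filled where the adjusted p is under 0.05; squares are total counts and triangles are hepatocyte scaling. With TMM 7 of 12 ZIP genes rose and 5 of 8 ZnT genes fell, and every gene lies further right on the other scales.

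The list of MTF1 and its targets, which leaves out Mt1 and Mt2, had 7 tested genes, of which 3 rose, 1 fell and 3 did not pass (median 0.09), near the 52.1% of all tested genes that passed. On total counts 4 rose and 0 fell (median 0.41), beside 44.0%, 8.07% and a median of 0.34 for all tested genes. Mtf1 itself was at 7.20 ± 0.638 TPM on CDAHFD and 6.29 ± 0.755 TPM on normal diet (SD, n = 3 each). Its log2 fold change was -0.17 ± 0.12 with TMM (edgeR adjusted p = 0.259) and 0.16 on total counts. Csrp1, a cytoskeletal LIM protein, rose by 2.05 ± 0.14 (adjusted p = 6.98e-07), Ndrg1 by 0.72 ± 0.19 (0.0078) and Slc39a10 by 0.55 ± 0.18 (0.0222). The list was not split by whether MTF1 induces or represses a target, so its counts give no direction of MTF1 activity. The gene that fell with TMM was Slc30a1.

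Of 8 genes of manganese handling, 2 rose and 5 fell with TMM (median -0.44), beside 28.5%, 23.5% and a median of 0.01 for all tested genes. On total counts 3 rose and 1 fell, about the 44.0% and 8.07% of all tested genes, but the median of -0.11 lay below their 0.34. The one that fell on both was Slc30a10. The risers with TMM were Tmem165, a Golgi manganese carrier (0.87 ± 0.14, edgeR adjusted p = 0.000287), and Slc11a2, an importer of iron and manganese (0.80 ± 0.13, 0.000415). Sod2, the manganese superoxide dismutase of mitochondria, was at -0.56 ± 0.11 (0.00133) with TMM and at -0.23 (0.0879) on total counts.

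Of 12 liver zinc enzymes, 2 rose and 8 fell with TMM (median -0.58), beside 28.5%, 23.5% and a median of 0.01 for all tested genes. On total counts 2 rose and 5 fell (median -0.26), beside 44.0%, 8.07% and a median of 0.34. Dpys, of pyrimidine breakdown, fell by 1.41 on the log2 scale, Car3, a carbonic anhydrase, by 1.38 and Glo1, of methylglyoxal removal, by 1.13, whereas Car2, another carbonic anhydrase, rose by 1.44. Of 11 tested genes of copper handling, 3 rose and 4 fell (median -0.02), and 5 rose and 1 fell on total counts; both lie near the shares of all tested genes, 28.5% and 23.5% with TMM and 44.0% and 8.07% on total counts. Steap4, a metalloreductase, rose by 1.13 ± 0.14 (edgeR adjusted p = 5.95e-05), and Slc31a1, the main copper importer, fell by 0.73 (0.000373).

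Of 15 interleukin 6 and acute phase genes, 8 rose, 2 fell and 5 did not pass (median 1.00), beside 28.5% higher and 23.5% lower of all tested genes. On total counts 11 rose and 2 fell (median 1.32), beside 44.0% and 8.07%. The same shares apply to the next lists. The median of all tested genes was 0.01 with TMM and 0.34 on total counts. Lcn2 rose by 6.98 ± 0.22 (edgeR adjusted p = 5.98e-09), Orm2 by 4.56 ± 0.21 (5.55e-08) and Saa2 by 4.51 ± 0.44 (8.45e-06). Orm1 was at 0.30 ± 0.13 (0.0805). Saa1 and Saa2 are close paralogues, as are Orm1 and Orm2; how counting split reads between them was not measured. Il6ra, the interleukin 6 receptor, fell by 0.89 ± 0.16 (0.000726). Of 10 glucocorticoid response genes, 1 rose, 7 fell and 2 did not pass (median -0.61), and on total counts 1 rose and 5 fell. Tat fell by 1.36 ± 0.19 (0.000158) and Dusp1 by 1.13 ± 0.26 (0.0039). In TPM Dusp1 overlapped between the diets, at 21.4 to 31.9 on CDAHFD and 31.3 to 62.8 on normal diet. The riser was Sgk1 (0.82 ± 0.12, edgeR adjusted p = 0.000209), and Fkbp5 did not pass (-0.20 ± 0.15, 0.294). Of 7 tested genes of endoplasmic reticulum stress, 2 rose and 3 fell (median -0.31), and on total counts 2 rose and 2 fell (median 0.01). Asns rose by 2.27 ± 0.32 (0.000126) and Herpud1 fell by 1.39 ± 0.13 (8.05e-06).

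**Figure D4:**
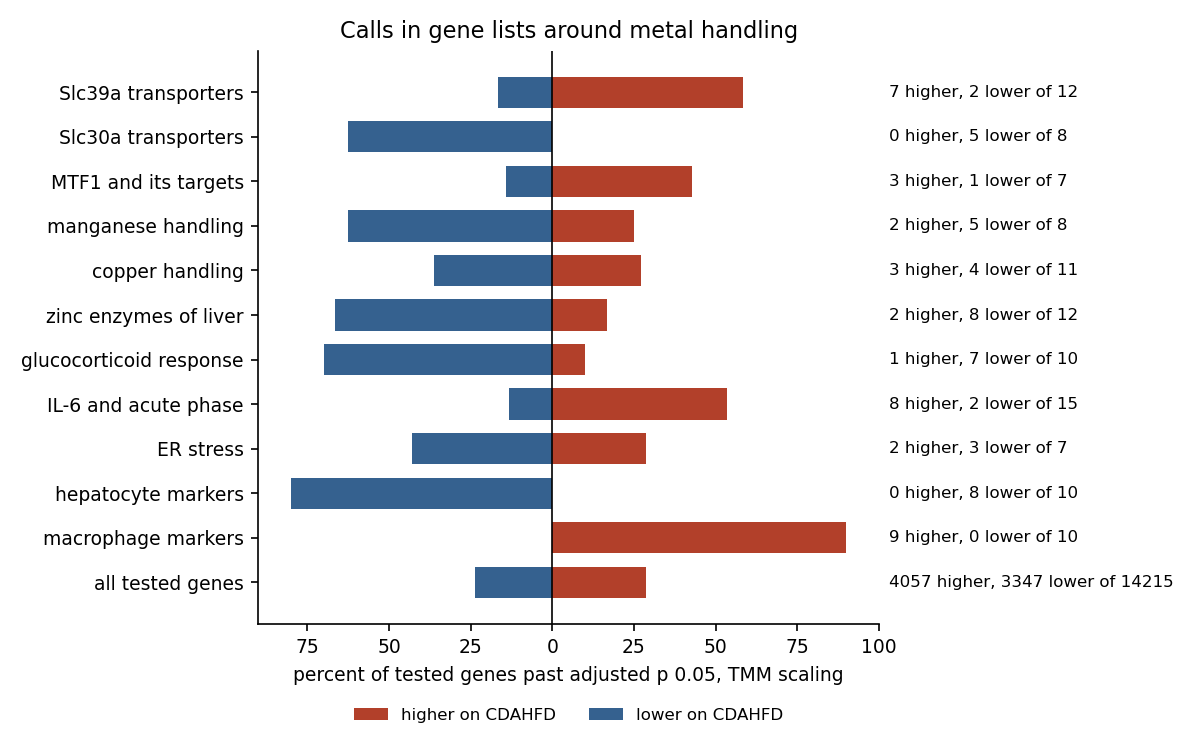
Share of tested genes of each list with an adjusted p under 0.05 (horizontal axis, percent), higher on CDAHFD to the right and lower to the left, with TMM. The acute phase list has 8 higher and 2 lower of 15 and the glucocorticoid list 1 higher and 7 lower of 10, beside 4057 higher and 3347 lower of 14215 tested genes.

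Markers of other cell types moved with the diet too. With TMM, 9 of 10 macrophage, 8 of 8 stellate cell and fibroblast, 6 of 6 tested cholangiocyte, 6 of 8 lymphocyte, 4 of 4 tested neutrophil and 2 of 8 endothelial markers rose, and 0 of these lists' genes fell, beside 28.5% higher and 23.5% lower of all tested genes. On total counts 6 of 8 endothelial markers rose, beside 44.0%. Most of the lymphocyte and neutrophil risers, and some of the others, passed the filter only through the CDAHFD libraries, where they are high. Among the neutrophil risers these were S100a8 (3, 4 and 5 counts on normal diet), S100a9 (7, 4 and 5) and Cxcr2 (2, 1 and 3). Lymphocyte risers of this kind were Cd8a (4, 7 and 8), Cd3e (6, 7 and 10), Cd3g (9, 9 and 13), Nkg7 (10, 8 and 13) and Ncr1 (5, 5 and 5). Macrophage risers of this kind were Gpnmb (6, 6 and 8), Trem2 (5, 13 and 9) and Itgam (4, 4 and 2). Calls of that kind had to favour a rise and are no support for one. Of 10 hepatocyte markers 0 rose and 8 fell (1 and 5 on total counts), and of 2 tested acinar markers 1 fell. Whether the share of these cells sets any of the levels of the 7 genes was not tested.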

How the data were processed

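Poly(A) RNA of mouse liver was sequenced in 6 stranded libraries, per the labels' protocols. The authors deposited raw counts and TPM per gene; reads were aligned with STAR 2.7.11a to GRCm39, per the submitters' processing notes. The sources used here do not name the counting program or its strand setting. The deposited TPM sum to 1000000 in each library.

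Counts were filtered by diet (edgeR 4.0.16 in R 4.3.3, minimum count 10), leaving 14215 genes, scaled by TMM and tested with the quasi-likelihood test, CDAHFD over normal diet, with Benjamini-Hochberg adjustment over all of them. A standard error is the log2 fold change over the square root of F. CPM use TMM-scaled totals. The steps were tested on simulated data. Alternatives were other scalings and filters, DESeq2 1.42.0, limma 3.58.1 (voom, or log2(TPM + pseudocount), 1 or 0.1), a replicate block and leaving out each library. With no filter, edgeR's prior degrees of freedom were infinite, against 7.35 in the fit reported: each gene's own spread was then not used, so no p-value of that fit is given. A minimum count of 5, with prior degrees of freedom of 7.69, was added after seeing the data; it kept Mt2 only through the diet on which it is high.

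The ratio of Mt1 to Mt2 was planned on a log scale. A count of 0 makes that undefined, so the share of Mt2 in Mt1 was used. Named were the 7 genes, both transporter families, the other metallothioneins and Mtf1, the first and the most changed genes of each list, and the nearest profiles, of which 1 is not reported here. Gm45774 and Gm20427 were named for their overlaps, and Sgk1 as the riser of the glucocorticoid list. The members and lists were chosen with earlier results of these data known. Gene overlaps come from GENCODE M21 and start regions from RefSeq, both on GRCm38, so coordinates are not those of the alignment. Ddit3 matched 2 gene IDs and was left out.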

Additional observations from a re-analysis of the deposited data

How the results depend on the processing

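Mt1 and Slc30a10 passed with the same sign in every setting whose p-values could be used. Scales other than TMM moved the counts of genes: 6258 were higher and 1147 lower on total counts, 6624 and 849 with hepatocyte scaling, 6449 and 897 on log2(TPM + 1), 6433 and 897 on log2(TPM + 0.1), and 6175 and 714 on log2(TPM + 1) with no filter, against 4057 and 3347 as reported. Under each of these 5, 1 of the 7 genes was lower, against 3. In that order Slc39a14 was at -0.18, -0.12, -0.15, -0.15 and -0.15 and Slc30a1 at -0.15, -0.08, -0.10, -0.11 and -0.10, none passing.
Again in that order, these values turned sign: Slc30a4 0.24, 0.31, 0.24, 0.27 and 0.24, Slc30a6 0.20, 0.26, 0.23, 0.25 and 0.23, Slc30a7 0.10, 0.16, 0.12, 0.14 and 0.12, Slc30a9 0.05, 0.11, 0.09, 0.09 and 0.09, Mtf1 0.16, 0.22, 0.17, 0.20 and 0.17, Atf4 0.01, 0.08, 0.06, 0.06 and 0.06, Il6st 0.24, 0.31, 0.28, 0.28 and 0.28, Fkbp5 0.12, 0.18, 0.14, 0.14 and 0.14, and Adh1 0.05, 0.11, 0.09, 0.09 and 0.09. With the last 4 of them Nr3c1 was at 0.03, 0.01, 0.01 and 0.01 and Slc39a7 at 0.02, 0.07, 0.17 and 0.07. Relative to TMM, total counts, hepatocyte scaling and log2(TPM + 1) moved the median of all genes by 0.32, 0.39 and 0.34. What sets that common shift was not tested.
Leaving out each library gave 0.55 to 1.02 for Slc39a4, 0.86 to 1.41 for Slc39a5, -0.28 to 0.05 for Slc30a6, -0.71 to 0.49 for Slc39a7 and -0.0307 to 0.196 percentage points for the Mt2 share. The unfiltered edgeR fit, whose p-values are void, is not counted as support for any call. With a minimum count of 5, 7925 genes passed, and the 6 tested genes kept their calls; Mt2 entered only through the CDAHFD libraries, so its call there is no support.
Correlations of same-numbered libraries were -0.047, 0.069 and 0.118, and those of differently numbered libraries ran from -0.145 to 0.089. So few values cannot show whether the replicate numbers pair the libraries. With the replicate block 7357 genes passed, against 7404, and 6 of the 7 genes. Single genes moved either way: the edgeR adjusted p of Slc39a4 was 0.000409 with the block and 0.0126 without. That of Slc39a14 was 0.00979 with the block and 0.00741 without.
Depth limits Mt2 and Slc39a5, with at most 57 counts in a library, and 3 libraries a diet limit every p-value.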
